A study of Gallus gallus with 4 samples.

Results

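This account covers 1488 clustered CTCF sites of the chicken B-lymphoid line DT40. They were found by merging the peaks of 3 deposited lists wherever they shared at least 1 bp, which gave 15733 sites in all. A member was a site called in DT40 and in neither HD3 list, on chromosome 1, 3 to 10, 12 to 19 or 21 to 28. It also had to have another DT40 site at most 10 kb away, edge to edge, whether or not HD3 shared that neighbour. On these 25 chromosomes there were 3506 sites called in DT40 alone, so the members were 42.4% of them and the other 2018 were isolated. Chromosomes 2, 11 and 20, Z, W and the linkage group were left out by the rule.

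The series compared CTCF deposition in lymphoid and erythroid chicken cells that were also studied by 4C, a method that maps the contacts of a chosen locus. DT40 (CRL-2111, ATCC) is a lymphoid line derived from a bursal lymphoma. HD3 is an erythroblast line transformed by avian erythroblastosis virus (clone A6 of the line LSCC), profiled without induction and after erythroid differentiation was induced by heat and iso-H-7, a kinase inhibitor. Each of these 3 groups is 1 library, precipitated with the same rabbit serum against amino acids 86 to 233 of chicken CTCF, and the only input library came from HD3. Each line is 1 clone or culture, with no replicate. Whether the cells kept their lineage cannot be read from peak positions, so the labels were taken as given.

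CTCF is a zinc finger protein that binds a long DNA motif. It halts the cohesin ring as that ring extrudes chromatin loops, and so marks loop anchors, domain borders and insulators. Many of its sites are occupied in most cell types, and others only in some. Neighbouring CTCF sites are common at domain borders and in gene clusters such as the antigen receptor loci of lymphocytes. In the chicken the small microchromosomes are rich in genes and CpG islands.

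The members were chosen from the DT40 calls, their absence from the HD3 lists and their distances, so these values describe the set and test nothing. There was 1 library per group, so no difference below has a replicate check and no p-value was computed. Intervals are 95% intervals for counting error only. They take sites as independent, which neighbours are not, and so are likely too narrow. Sequencing depth is unknown, since only peak lists were used here, with peak numbers of 13574 for DT40, 8768 for non-induced HD3 and 4820 for induced HD3. A site missing from an HD3 list was not called there, which does not show that it was unoccupied. The number of DT40 genome copies at a site was not measured here, since the only input library came from HD3 and was not analysed, so copy number and CTCF binding cannot be told apart in the crowded DT40 regions below.

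Sites called in DT40 alone more often had a close DT40 neighbour than sites shared with HD3 did. The share with a neighbour within 10 kb was 42.4% (1488 of 3506, interval 40.8 to 44.1) for the former. It was 35.0% (1876 of 5360, interval 33.7 to 36.3) for DT40 sites also called in HD3. Over all 8866 DT40 sites of these chromosomes the share was 37.9%. Of all merged sites on these chromosomes, 32.3% were called in DT40 alone. The 3 largest groups of neighbours held 95 members, and without them the first share was 40.8% and the second 34.9%. At the edge of the rule, the nearest neighbours of the last 3 members lay 9975, 9995 and 9995 bp away. Those of the first 3 isolated sites lay at 10035, 10037 and 10057 bp, and DT40 scores were 62.6 to 124 inside and 63.5 to 102 outside.

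The caller score, which is the authors' own value for each DT40 peak, set the kinds of site further apart. Of the 1481 sites called in DT40 alone with a score from 50 to 75, 35.99% had a neighbour within 10 kb (interval 33.5 to 38.5). The share was 40.9% from 75 to 100, 47.7% from 100 to 150 and 50.9% from 150 to 300. Of the 107 with a score of at least 300, 83 were members, or 77.6% (interval 68.5 to 85.1). For sites shared with HD3 the range over these bins was narrower. It ran from 29.3% (interval 26.1 to 32.8) in the bin from 75 to 100 to 38.8% (interval 35.9 to 41.7) in the highest bin, and it was 29.9% in the lowest. Of these 83 members, 47 had their nearest DT40 site less than 500 bp away, where it may not be a separate binding site. The shares by score were not recomputed with such close sites joined. The highest bin also rested in part on the 3 largest groups, which held 24 of the 83 members. Without those groups, 71.1% of the sites called in DT40 alone in that bin were members (interval 60.1 to 80.5) and 38.4% of shared sites had a neighbour.

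**Figure D1:**
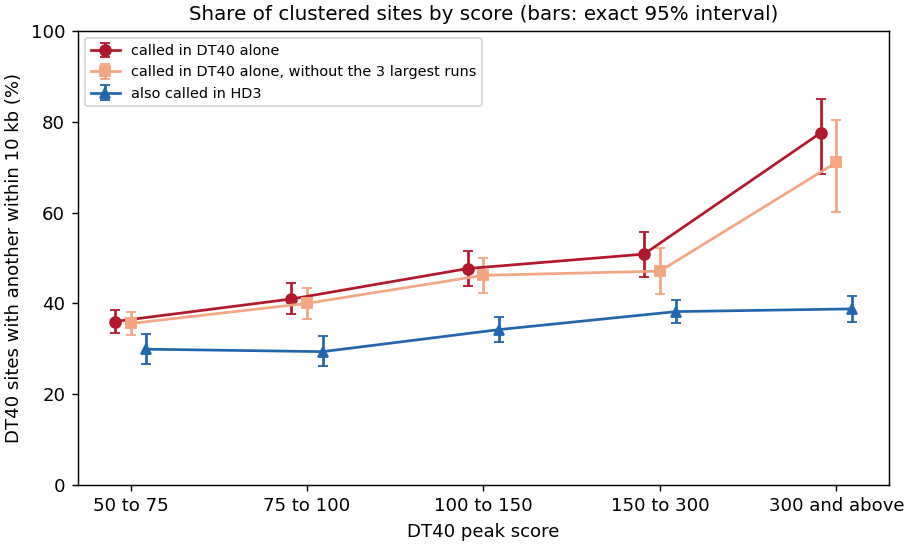
Percentage of DT40 sites with another DT40 site within 10 kb (vertical axis) by DT40 peak score (horizontal axis), for sites called in DT40 alone, the same without the 3 largest runs, and sites also called in HD3, with exact 95% intervals. The DT40-alone points go from 35.99% to 77.6%, and the shared points lie between 29.3% and 38.8%.

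Scores of the members ran from 50.0 to 3100, with a median of 89.4 (interquartile range 65.4 to 132). Isolated sites called in DT40 alone had a median of 77.5 (61.2 to 107), and isolated sites shared with HD3 a median of 143 (89.2 to 253). The members thus lay between these groups at the median, and their distribution overlapped both. The difference from isolated sites was larger in the upper tail. A score of at least 300 was reached by 5.58% of members (interval 4.47 to 6.87) and 1.19% of isolated sites (interval 0.763 to 1.76), against 13.7% of all DT40 sites there. Members were slightly longer, at a median of 661 bp (575 to 795) against 632 bp (561 to 719). Above 3000 bp there were 23 members (1.55%) and 4 isolated sites (0.20%), against 0.80% of clustered and 0.43% of isolated sites shared with HD3. Among shared sites the clustered ones also scored higher than the isolated ones, with medians of 164 and 143. Of these, 22.9% and 19.5% scored at least 300. Higher scores with clustering were thus not particular to the members.

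**Figure D2:**
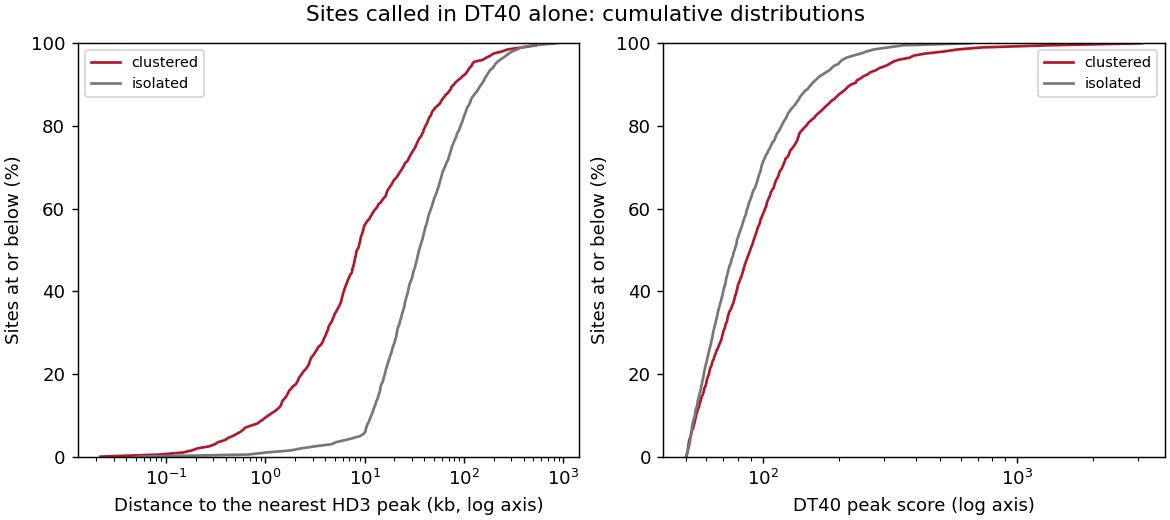
Cumulative percentage of sites called in DT40 alone (vertical axes) by distance to the nearest HD3 peak in kb (left) and by DT40 peak score (right), both on log axes, for clustered and isolated sites. The clustered curve reaches 56.0% at 10 kb and the isolated curve 5.55%, and the clustered scores have the longer upper tail. The neighbour rule bars isolated sites from having a shared site within 10 kb, so the contrast at 10 kb is built into the groups.

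Neighbours of members were more often called in DT40 alone than neighbours of shared sites were. The nearest DT40 site was itself absent from both HD3 lists for 56.2% of the members (836 of 1488, interval 53.6 to 58.7). For clustered sites shared with HD3 this held for 34.9% (interval 32.8 to 37.1), and 39.5% of all DT40 sites were called in DT40 alone. The neighbour of a clustered site is itself clustered, and 44.2% of all clustered DT40 sites were called in DT40 alone (1488 of 3364). The share was higher the closer the neighbour lay. It was 75.1% (235 of 313, interval 69.9 to 79.8) for members with a neighbour less than 500 bp away. At 5000 to 10000 bp it was 43.6% (180 of 413, interval 38.7 to 48.5), near the 44.2% of all clustered sites. Clustered shared sites were long, with a median of 1228 bp, and each includes its HD3 peak. Of the lists, only the non-induced HD3 one had long peaks, with a median of 1217 bp. The median was 650 bp for induced HD3 and 712 bp for DT40. A DT40 peak under an HD3 peak was merged into the shared site and could not count as a member close to it. How far this raised the share at short distances was not tested. The 3 largest runs, mostly made of members, also weighed on the closest group. Without them 16.4% of members had a neighbour less than 500 bp away, against 21.03% with them. The shares by distance were not recomputed without these runs. The median score was 104 in the closest group and 83.3 in the farthest, and the median length 768 and 647 bp.

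A neighbour at such a short distance may not be a separate binding site. The median distance from a member to its nearest DT40 site was 2.54 kb (interquartile range 0.713 to 5.34 kb). For 313 members (21.03%) it was under 500 bp, and for 137 (9.21%) under 100 bp, less than the length of any DT40 site on these chromosomes (shortest 216 bp). When DT40 sites less than 500 bp apart were joined first, 37.8% of sites called in DT40 alone still had another within 10 kb, against 32.8% of shared sites.

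Chaining DT40 sites at gaps of at most 10 kb placed the members in 870 runs, most of them pairs. There were 607 pairs, with 783 members (52.6%), and 180 runs of 3 sites, with 303 members. A further 73 runs of 4 to 8 sites held 241 members. The 10 runs of 9 or more sites held 161 members, 10.8% of the total. The median run was 7.18 kb long, and the longest 96.2 kb. In 231 runs no site was called in HD3, and these held 578 members (38.8%, interval 36.4 to 41.4).

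Members of larger runs had higher scores, and those of the largest runs were longer. The median member score was 83.3 in pairs (interquartile range 63.3 to 116), 87.1 in runs of 3, 95.1 in runs of 4 to 8 and 137 in runs of 9 or more (87.5 to 236). The median length was 647, 640, 695 and 982 bp in the same order. The ranges of neighbouring classes overlapped widely, and only the largest runs had a median length beyond the upper quartile of the isolated sites. That class was 10 runs, with 95 of its 161 members in the 3 largest, and single runs differed. Their median member scores went from 72.0, in the run at 191967013 on chromosome 1, to 313. The chromosome 16 run among them had a median member length of 614 bp.

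**Figure D3:**
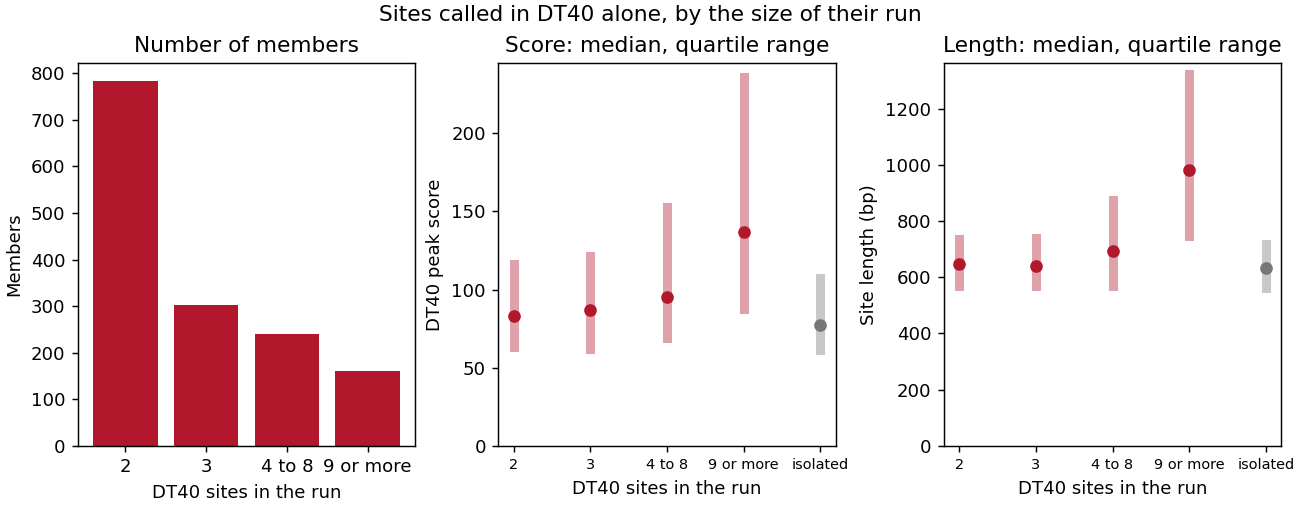
Sites called in DT40 alone by the number of DT40 sites in their run: number of members (left), DT40 peak score (middle) and site length in bp (right), with points for medians and bars for the interquartile range, beside isolated sites. Runs of 9 or more sites hold 161 members, with a median score of 137 and a median length of 982 bp, against 77.5 and 632 bp for isolated sites.

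Among the pairs, 431 joined a member to a site shared with HD3 and 176 joined 2 members. In the mixed pairs the shared site had the higher DT40 score in 348 cases (80.7%, interval 76.7 to 84.4), with medians of 171 for the shared site and 80.9 for the member. Scores of the 2 sites of a mixed pair were nearly unrelated (Spearman's rho 0.06 across 431 pairs of 1 library), as were those of member pairs (rho 0.14 across 176 pairs). The median gap was 3.89 kb in mixed pairs and 3.62 kb in member pairs. The higher score of a shared site was also seen away from members, as given above for isolated sites.

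The largest run lay on chromosome 1 at 139281514 to 139377664 (galGal4). It held 50 members among 52 DT40 sites, which covered 51.5% of 96.2 kb. Member scores there ran from 52.8 to 701 with a median of 156, and nearest neighbours were 51 to 5609 bp away, with a median of 143 bp. The highest score belonged to a member of 4404 bp at 139284396 to 139288799. HD3 had 1 peak in each list inside the run, at different sites, whose DT40 scores of 635 and 568 came next in order. The HD3 peaks of this run therefore fell on the second and the third strongest of its DT40 sites.

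The second run, on chromosome 1 at 100350925 to 100415354, held 23 members among 27 sites over 64.4 kb, of which 63.5% was covered. Member scores ran from 51.6 to 2211, with a median of 120. The strongest member, at 100359536 to 100360767, was 1232 bp long, and its nearest neighbour 156 bp away scored 97.3. Induced HD3 had 5 peaks in this run and non-induced HD3 had 1. That peak was 4938 bp long, at 100410417 to 100415354, and made up the last site, which was called in all 3 lists. The other 3 shared sites were called in induced HD3 and DT40.

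The third run, on chromosome 14 at 13626839 to 13673830, had the highest median score of the 3. It held 22 members among 24 sites over 47.0 kb, 61.8% of it covered, with member scores from 55.0 to 3100 and a median of 313. Its strongest member was 4742 bp long, at 13653199 to 13657940. Within 4 kb beyond its end lay members with scores of 517, 1331, 69.1 and 918, and then a site called in all 3 lists with a DT40 score of 585. In the non-induced HD3 list that shared site scored 50.1, close to the lowest value of 50, and in the induced list 73.1, where the median is 85.9. Between 13632889 and 13641967, where no DT40 peak was called, induced HD3 had a peak of 1123 bp that non-induced HD3 lacked.

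**Figure D4:**
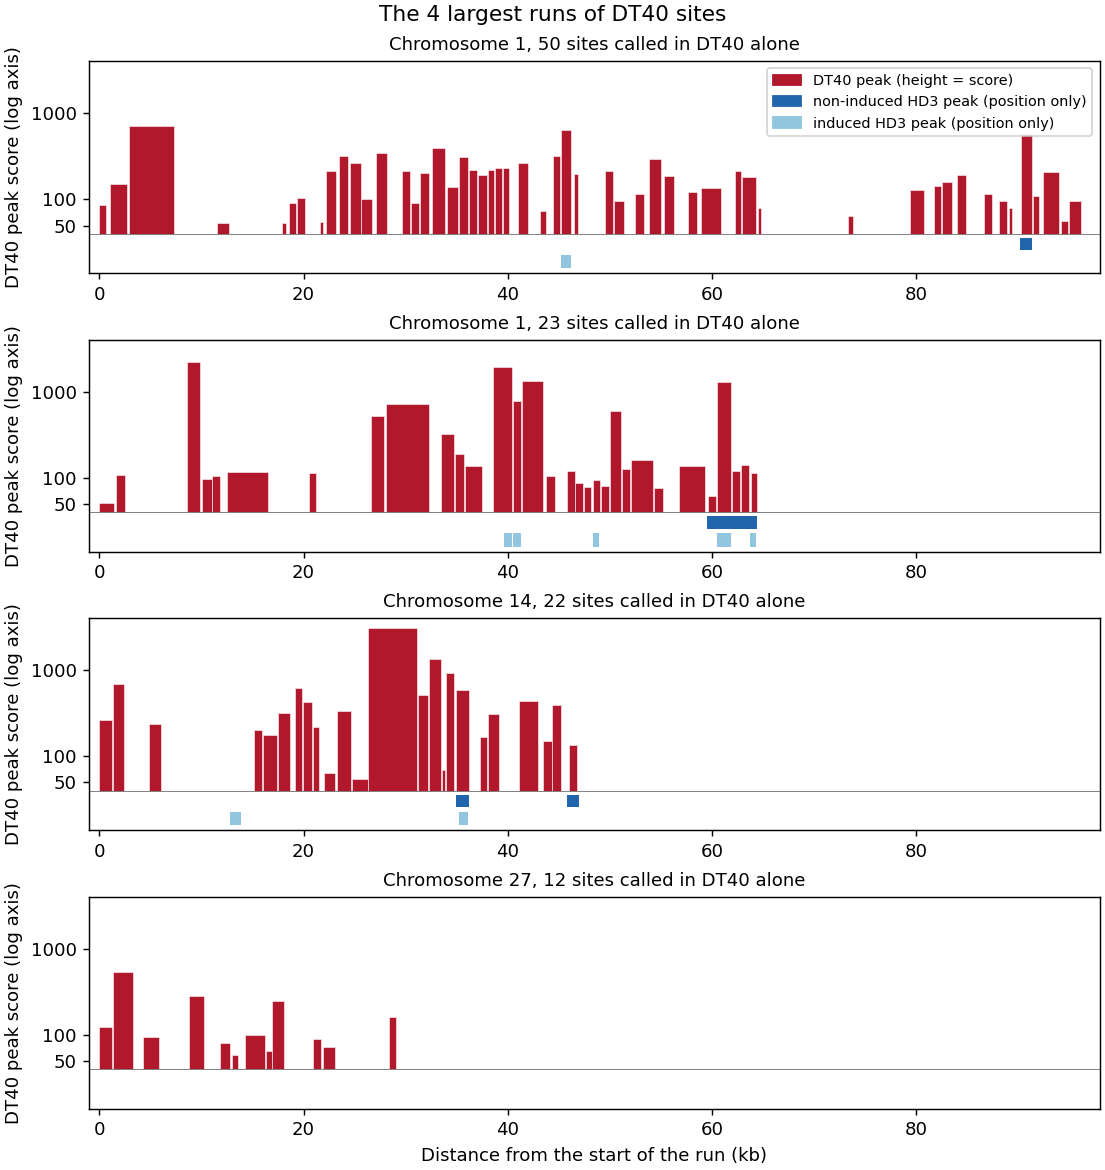
The 4 runs with most members, each drawn from its own start (horizontal axis, kb): DT40 peaks as bars with the score as height (vertical axis, log scale), and HD3 peaks as boxes below, by position only. The runs on chromosomes 1, 1 and 14 hold 50, 23 and 22 members and a few HD3 peaks, and the run on chromosome 27 holds 12 members and no HD3 peak.

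Of the other 7 runs named by size, 3 held no HD3 peak. One was found on chromosome 27 close to its start, at 25977 to 55024, with 12 members of scores 59.3 to 538 (median 96.8). Another lay on chromosome 16 at 319086 to 350558, with 9 members of scores 54.5 to 909 (median 140) and lengths up to 4285 bp. The third was on chromosome 1 at 3977734 to 4003038, with 9 members of scores 53.0 to 155 (median 101). These runs had no called erythroid counterpart in either state.

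The remaining 4 runs of this size each had 1 or 2 shared sites. On chromosome 6 at 10643692 to 10688460 there were 10 members with scores from 53.5 to 1403 and a median of 103. On chromosome 17 a run at 5 to 32874 began at the first bases of the assembled sequence and held 9 members with scores of 55.2 to 664. On chromosome 12 at 2726669 to 2745330, 9 members covered the ground most fully, since the run's sites took up 71.5% of its 18.7 kb. On chromosome 1 at 191967013 to 192009500 there were 8 members with scores of 57.0 to 168. Apart from the chromosome 6 run, where 1 site was called in all 3 lists, the shared sites of these 4 runs were each called in induced HD3 and DT40 and not in non-induced HD3. The chromosome 6 run also held 1 site of that kind.

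The HD3 calls inside the largest runs came mainly from the induced cells. The 10 runs of 9 or more sites held 13 shared sites, of which 8 were called in induced HD3 and DT40 alone, 3 in all lists and 2 in non-induced HD3 and DT40. That is 61.5% called after induction only (interval 31.6 to 86.1), against 2.43% of all shared DT40 sites on these chromosomes. The 8 sites lay in 6 runs, with 3 of them in the run at 100350925 on chromosome 1. In the 860 runs of 2 to 8 sites, 21 of 770 shared sites (2.73%, interval 1.70 to 4.14) were of this kind. Peak counts ran the same way, with 13 induced and 5 non-induced HD3 peaks in the runs of 9 or more, although the chromosomes held 3870 induced and 7063 non-induced peaks. Non-induced peaks were longer, with a median of 1217 bp against 650 bp in the induced list. A long peak can span several shorter ones, so the 2 peak counts are not strictly alike. How far this weighed on them was not tested. These counts are small, and with 1 library per state they have no replicate check.

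Members as a group lay nearer to non-induced than to induced HD3 peaks, and the non-induced list is also the longer one. The median distance to a non-induced peak was 9.74 kb for all members, and 26.2 kb to an induced peak. In runs of 9 or more sites the order was the opposite, at 35.5 kb and 11.4 kb. These medians rest on few HD3 peaks, since 95 of the 161 members there lay in the 3 largest runs. The largest run alone held 50 of them, with 1 peak of each HD3 list inside it. For isolated sites called in DT40 alone the distances were 36.6 and 67.4 kb. The rule bars these from having a shared site within 10 kb, so members lie nearer to HD3 peaks by construction. Members in runs without an HD3 call, which likewise have no shared site within 10 kb, had medians of 46.4 and 74.2 kb.

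An HD3 peak lay within 10 kb of 56.0% of the members (interval 53.5 to 58.6) and of 5.55% of the isolated sites. This contrast is built into the groups by the rule. No isolated site can have a shared site within 10 kb, while for members a shared site can serve as the neighbour. HD3 sites that were absent from DT40 could not serve in that way, and here the intervals of the groups overlapped. Such a site lay within 10 kb of 4.37% of members (interval 3.39 to 5.53), 5.55% of isolated sites (interval 4.59 to 6.64) and 5.87% of all DT40 sites on these chromosomes.

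Farther out, at 10 to 100 kb, members had on average 2.66 sites called in HD3, isolated sites 2.37 and clustered shared sites 3.04. For all DT40 sites the mean was 2.65, close to that of the members. On chromosomes 1 and 3 to 5 the mean was 2.14 for members and 1.81 for isolated sites. On chromosomes 12 to 28 it was 3.31 and 3.46, so the direction differed with chromosome class. Sites called in DT40 alone were more numerous around members at the same distance, with a mean of 5.04. It was 1.53 around isolated sites and 1.99 around all DT40 sites. The medians lay closer together, at 2 for members, 1 for isolated sites and 1 for all DT40 sites. Runs longer than 10 kb contribute to the mean of the members themselves. Without the 3 largest runs that mean was 3.26, and for members in pairs it was 1.99, level with all DT40 sites.

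The members were unevenly spread over the chromosomes. Chromosomes 12 to 28 carried 4.28 members per Mb (interval 3.94 to 4.64), chromosomes 6 to 10 carried 1.58 (1.38 to 1.797) and chromosomes 1 and 3 to 5 carried 1.48 (1.37 to 1.59). Isolated sites called in DT40 alone were more even, at 3.83, 2.84 and 2.38 per Mb. All DT40 sites were also densest on the small chromosomes, with 2852 over 138 Mb, 1762 over 143 Mb and 4252 over 455 Mb. Clustered shared sites numbered 772, 364 and 740 over the same spans, so this unevenness was not particular to the members. Members made up 52.7% of the sites called in DT40 alone on chromosomes 12 to 28 (interval 49.8 to 55.7), 35.7% on 6 to 10 and 38.3% on 1 and 3 to 5. Shared sites showed the same order of the small chromosomes over the rest, at 44.5%, 32.2% and 29.6%. In each of these chromosome classes the share was thus higher for sites called in DT40 alone. On chromosomes 6 to 10 the intervals overlapped (32.0 to 39.6 and 29.5 to 35.1). Among the largest chromosomes the difference was widest on chromosome 1. Shares on chromosomes 3, 4 and 5 were 27.8%, 34.5% and 32.1%, against 24.6%, 32.4% and 30.8% for shared sites.

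Chromosome by chromosome, the share for sites called in DT40 alone was above that of shared sites on 18 of 25. It was not above it on 7 chromosomes. Intervals of single chromosomes were wide. Chromosome 1 held 398 members, 26.7% of all, with shares of 45.1% and 30.7%. A few crowded stretches weighed on the first share. The runs at 139281514 and 100350925 held 50 and 23 of its members. The segment from 191000001 to the last peak held a further 73, among 106 sites called in DT40 alone. The share without these stretches was not computed. Chromosomes 27 and 28 had 66.1% and 67.4% against 34.3% and 45.1%. Chromosome 7 went the other way, with 23.5% against 28.1%.

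**Figure D5:**
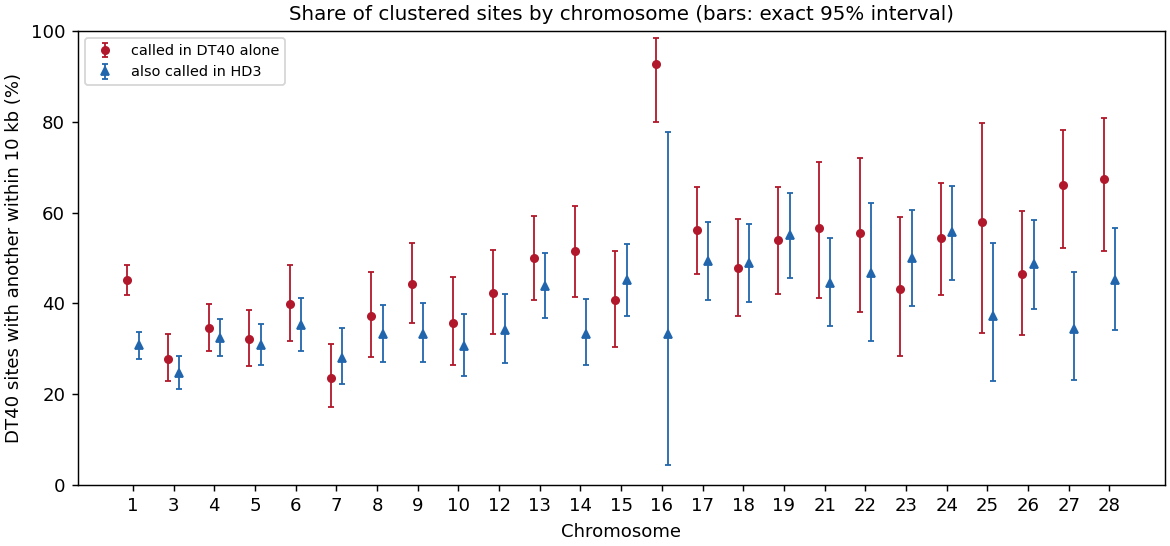
Percentage of DT40 sites with another DT40 site within 10 kb (vertical axis) on each chromosome (horizontal axis), for sites called in DT40 alone and sites also called in HD3, with exact 95% intervals. Chromosome 16 stands highest at 92.7%, and the interval bars of most other chromosomes overlap between the 2 kinds of site.

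Chromosome 16, which carries the major histocompatibility complex and the ribosomal RNA genes of the chicken, was crowded beyond all others. Peaks on it extended over 0.484 Mb, and 38 of its 41 sites called in DT40 alone were members, or 78.5 per Mb (interval 55.5 to 108). Their scores ran from 50.7 to 909 with a median of 84.9, close to the median of all members. On the same chromosome 6 DT40 sites were shared with HD3. Without chromosome 16 the members were 41.8% of the sites called in DT40 alone.

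Pooled over the chromosomes used, members lay near chromosome ends more often than isolated sites did, though not on the largest chromosomes. Of all members, 19.2% (interval 17.2 to 21.2) lay within 1 Mb of an end, against 11.7% of isolated sites (interval 10.4 to 13.2) and 12.7% of all DT40 sites. Ends were taken as the first base and the last peak of any list. Peaks on chromosome 16 extended over 0.484 Mb, so all its sites counted as near an end. Without chromosome 16 the shares were 17.0% and 11.6%. Sites shared with HD3 showed a difference in the same direction, with 14.4% of the clustered ones (interval 12.9 to 16.1) and 9.50% of the isolated ones (interval 8.55 to 10.5) near an end. On chromosomes 1 and 3 to 5 members and isolated sites called in DT40 alone were level, at 4.75% and 4.80%. For the same groups the shares were 16.8% and 8.60% on chromosomes 6 to 10, and 36.5% and 28.4% on chromosomes 12 to 28. In the last class, leaving out chromosome 16 gave 32.1% (interval 28.2 to 36.2) and 28.0% (interval 24.2 to 32.1), so that the intervals overlapped. Chromosomes 12 to 28, where both shares were highest, held 589 of 1488 members but 528 of 2018 isolated sites. The pooled contrast thus also carries this difference in spread over the chromosomes.

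The 5 members with the highest scores were long, apart from the one at 100359536 on chromosome 1 described above, and each had a neighbour within 337 bp. On chromosome 14 the member at 14297908 to 14302174 (score 3100, 4267 bp) lay 98 bp from a site of 5917 bp that induced HD3 shared. The nearest non-induced HD3 peak was 128207 bp from the member. That shared site also scored 3100, the value at which DT40 scores stop, so the scores cannot be ranked. On chromosome 1 the member at 32563527 to 32567512 (score 2368, 3986 bp) had a second member 337 bp away with a score of 429. No HD3 peak lay closer than 275 kb to it. On chromosome 19 the member at 4806045 to 4811416 (score 2343, 5372 bp) stood in a run of 5 members, 177 bp from one with a score of 263. At 32563527 on chromosome 1 and at 4806045 on chromosome 19, a long peak of high score thus had a much weaker neighbour beside it.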

How the data were processed

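CASAVA 1.8.2, Bowtie2 and MACS were used with galGal4, per the submitters' processing notes. Parameters and the control behind each peak call are not stated there. One peak list was deposited for each of the 3 CTCF libraries, without pooling. The score of each peak is the authors' value, deposited on a scale that the files do not state, with a lowest value of 50 in each list. Scores were compared only within a list, apart from the alternative that set the same limit of 100 in all lists. A merged site took the highest DT40 score in it. DT40 scores stop at 3100, a value shared by several peaks.

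Peaks sharing at least 1 bp were merged, and starts are printed counted from 1. Chromosome spans end at the last peak of any list. Intervals are exact, by Clopper-Pearson for shares and from the Poisson distribution for densities. Alternatives changed the neighbour distance, the score limit, the list lengths, the overlap required and the joining of close peaks. The members, comparisons and bins were chosen with earlier results of these data known. Named sites are the 10 runs with most members, the 5 members with the highest score and the 3 sites on either side of the 10 kb limit. Other sites were named after their values were seen. Gene annotation and sequence were not used here, since no galGal4 genome was at hand, so sites carry no gene names. Merging and chaining recovered 2691 of 2691 members planted in simulated peak lists. Each simulated HD3 peak lay inside its DT40 peak, so HD3 peaks that cover several DT40 peaks or none were not tried. Versions were NumPy 2.4.6, SciPy 1.17.1, pandas 2.3.3 and matplotlib 3.10.9, under Python 3.11.15.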

Additional observations from a re-analysis of the deposited data

How the results depend on the processing

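No paired analysis was possible because there were no replicates to pair or to leave out. Of 99 values (11 results under 9 alternatives), 53 stayed within the interval of the value reported, or within 1.5 times for the member count. In every setting sites called in DT40 alone had a neighbour more often than shared sites. The share pairs below give sites called in DT40 alone first.

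With a neighbour distance of 5 kb the shares were 30.7% and 21.2%. Of the members, 61.0% had a nearest site called in DT40 alone, 22.6% lay in runs of 4 or more, 48.3% in runs without an HD3 call, and 29.1% had a gap under 500 bp. At 20 kb the shares were 59.7% and 53.75%. The same member values were 52.2%, 39.7%, 30.7% and 14.95%, with 41.1% near an HD3 peak and 9.17% in the 10 largest runs.

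Requiring scores of at least 100 removed a larger part of the induced HD3 list (median 85.9) than of the other lists (median 109). This left 703 members and shares of 31.6% and 25.9%. The nearest site was called in DT40 alone for 62.3%, with 22.9% in runs of 4 or more, 53.8% in runs without an HD3 call, 44.7% near an HD3 peak and 15.4% in the 10 largest runs. The median score was 148 and the median length 755 bp. Taking the 4820 peaks of highest score from each list left 237 members, shares of 30.0% and 17.9%, and 62.0% with a nearest site called in DT40 alone. There, 31.2% had a gap under 500 bp and 30.8% lay in the 10 largest runs, with medians of 231 for score and 849 bp for length. Fewer members and higher scores follow from the construction of these settings.

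A reciprocal overlap of 50% gave 23.9% in runs of 4 or more, 42.6% in runs without an HD3 call and 62.9% near an HD3 peak. Joining DT40 sites less than 500 bp apart gave shares of 37.8% and 32.8%, 51.98% with a nearest site called in DT40 alone, 18.8% in runs of 4 or more and 5.90% in the 10 largest runs. By construction it left 0 with a gap under 500 bp.

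The other settings were chosen after the data were seen. Without the 3 largest runs, 53.6% had a nearest site called in DT40 alone, 22.0% lay in runs of 4 or more, 41.5% in runs without an HD3 call and 6.25% in the 10 largest runs, and 16.4% had a gap under 500 bp. Leaving out chromosome 16 or sites longer than 3000 bp moved none of the 11 results. Apart from what construction fixes, the cause of these shifts was not tested. The depth is unknown, so a missing HD3 call sets no upper limit on binding.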

Other observations

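The regions in this part were picked with their values in view. The end of chromosome 1, from 191000001 to the last peak at 195275492, held 73 members in 23 runs, or 17.1 per Mb (interval 13.4 to 21.5), against 2.04 per Mb over the whole chromosome. Their scores ran from 51.8 to 875 with a median of 95.9. The segment was crowded with sites called in DT40 alone of either kind. It held 106 of them, 73 being members, against 398 members among 883 on the whole chromosome. Of its 128 DT40 sites, 22 were shared with HD3, against 5360 of 8866 (60.5%) on the chromosomes used. The HD3 lists held 27 peaks without induction and 15 after it.

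A compact run without HD3 peaks lay on chromosome 1 at 148068758 to 148075456. It held 7 members in 6.70 kb, which covered 84.6% of it, with gaps between neighbours as short as 1 bp. In order along the chromosome their scores were 182, 399, 384, 298, 309, 67.3 and 322.

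In windows of 1 Mb, 389 held at least 1 member and 206 of these held 1 or 2. At the other extreme, 21 windows with 10 or more members held 413 of them.

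On chromosome 4 the window from 17000001 to 18000000 held 18 members among 30 DT40 sites. Of these sites, 1 was shared with HD3, which had 1 non-induced peak there and 0 induced peaks.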
